A study of Gallus gallus with 20 samples.

Results

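The MAP kinase cascade was followed through 85 probe sets of 35 genes on the Affymetrix chicken array. They were taken by name alone, as probe sets whose single gene name in the array annotation begins with MAPK, MAP2K, MAP3K or MAP4K, from 38439 probe sets tested, of which 25795 carry 1 gene name. By role they comprise 2 MAP4K genes (6 probe sets), 11 MAP3K genes (25), 3 MAP2K genes (8), 8 MAP kinases (21), 3 MAPK-activated kinases (4) and 8 genes of binding proteins and adaptors (21). Of the 35 genes, 10 have 1 probe set and 25 have several, up to 6 for MAP3K7IP2. Probe sets of a gene are numbered here by their mean signal over all arrays, the brightest being 1, so that MAP3K8 (2) is the dimmer of that gene's pair. The number only names a probe set, since signals of different probe sets are not comparable as amounts of RNA.

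A MAP kinase module is a relay of protein kinases. A MAP3K phosphorylates a MAP2K, which phosphorylates a MAP kinase of the ERK, JNK or p38 type, and the MAP kinase then acts on transcription factors and on further kinases such as MAPKAPK2. In macrophages, lipopolysaccharide sensed by Toll-like receptor 4 starts this relay through TRAF6 and the MAP3K TAK1, encoded by MAP3K7, and it also starts the TPL2 branch, encoded by MAP3K8, which leads to ERK. The relay itself runs by phosphorylation of proteins that are already present, whereas the arrays measured only the amount of mRNA of each component.

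HD11 is a chicken macrophage-like line transformed by the avian myelocytomatosis virus MC29. Cells received 1 μg/ml of ST-798 endotoxin from *Salmonella typhimurium*, a butanol extract dissolved in phosphate buffered saline, or vehicle (0 μg/ml), and were collected at 1, 2, 4 or 8 hours post stimulation (hps). Each of the 20 arrays held RNA pooled from 3 flasks. At each time 3 arrays came from endotoxin-stimulated cells and 2 from vehicle-treated cells, and replication 3, like the other replications done on a day of its own, had no vehicle-treated arrays.

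The deposited values are RMA expression values on the log2 scale. Their precision is limited by how few arrays each group has. Differences below are endotoxin minus vehicle on that scale, from a limma fit of all 20 arrays with a term for replication, so they need not equal the plain difference of the group means. A probe set was called at a q value under 0.05, with q computed over all 38439 probe sets, and these p and q values measure only the spread between these arrays. All 9 macrophage marker genes were measured. SPI1, CEBPB, LYZ and CSF1R averaged between 10.6 and 13.3, whereas TLR4 averaged 7.25 and MARCO only 5.46. No macrophage marker was called at 1, 2 or 8 hps, while 3 of the 9 (LYZ, TLR4 and CYBB) were higher at 4 hps. Of all probe sets 4.95% were called higher at that time, and 8.76% of the brighter 19220. Against vehicle-treated cells of 1, 2 and 8 hps, LYZ, TLR4 and CYBB at 4 hps stood at 0.36, 0.08 and 0.12, and none was called. The mean over the 9 markers lay between 10.3 and 10.6 in every array. Means over the markers of T cells (5 genes measured), B cells (5), erythroid cells (2) and fibroblasts (5) lay between 4.59 and 6.80. Single genes ranged from LUM at 2.94 to CD28, bright at 10.4, with CD3E and CD4 at 3.75 and 3.01. Besides CD28, COL1A2, HBA1 and CD3D lay above MARCO, at 7.55, 7.03 and 6.67. BLNK, PAX5, HBG1, COL3A1 and CD79B did too, at 5.67 to 6.59. Of these 17 genes CD8A, CD79B and COL3A1 were lower with endotoxin at 4 hps and BLNK at 2 hps. Of all probe sets 3.13% were called lower at 4 hps. Against vehicle-treated cells of 1, 2 and 8 hps, CD8A, CD79B and COL3A1 at 4 hps stood at -0.03, -0.16 and -0.14, and none was called. The vehicle-treated arrays at 4 hps stood apart together with the endotoxin-stimulated arrays of replication 3 at 1 and 2 hps. The first principal component took up 26.6% of the variance. On it these endotoxin-stimulated arrays lay at 32.1 and 33.6, and those of vehicle at 4 hps at 24.4 and 14.7. The other 16 arrays lay at -21.9 to 12.1. The vehicle array at 14.7, of replication 2, was close to the array at 12.1, the endotoxin-stimulated array of replication 3 at 4 hps.

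Transcripts of the cascade showed no called difference between endotoxin-stimulated and vehicle-treated cells at 1, 2 or 8 hps. By limma, 0 of the 85 probe sets passed at 1 hps (0.0364% of all probe sets did), 0 at 2 hps (0.0859% of all) and 0 at 8 hps (0.159% of all). At an unadjusted p under 0.05, 2, 4 and 10 of them passed at these times, which is 2.35%, 4.71% and 11.8%, beside 3.48%, 4.33% and 5.35% of all probe sets. The mean effect over these times was likewise called for 0 of 85 (0.271% of all). At an unadjusted p under 0.05, 11 passed for it, or 12.9% beside 5.14% of all probe sets. At 4 hps, 11 probe sets of 10 genes were higher with endotoxin and 0 were lower, which is 12.9% of the 85 beside 4.95% of all probe sets called higher and 3.13% called lower. A further 11 probe sets reached an unadjusted p under 0.05 at 4 hps, so that 22 did in all, 20 of them higher and 2 lower. That is 25.9% of the 85, beside 22.4% of all probe sets. The median difference over the 85 probe sets was 0.09 at 4 hps, beside -0.02 over all probe sets, and it lay between 0.004 and 0.03 at the other times. A change in transcripts per cell and a change in the share of cells that carry them cannot be told apart in RNA of whole cultures.

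Many of the 85 probe sets are bright, and bright probe sets were called more often. Among the brighter 19220 probe sets of the array, 8.76% were called higher at 4 hps. Of the 49 cascade probe sets in that range 10 were called, or 20.4%, and the remaining call, MAP3K4 (3), is in the dimmer range.

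**Figure D1:**
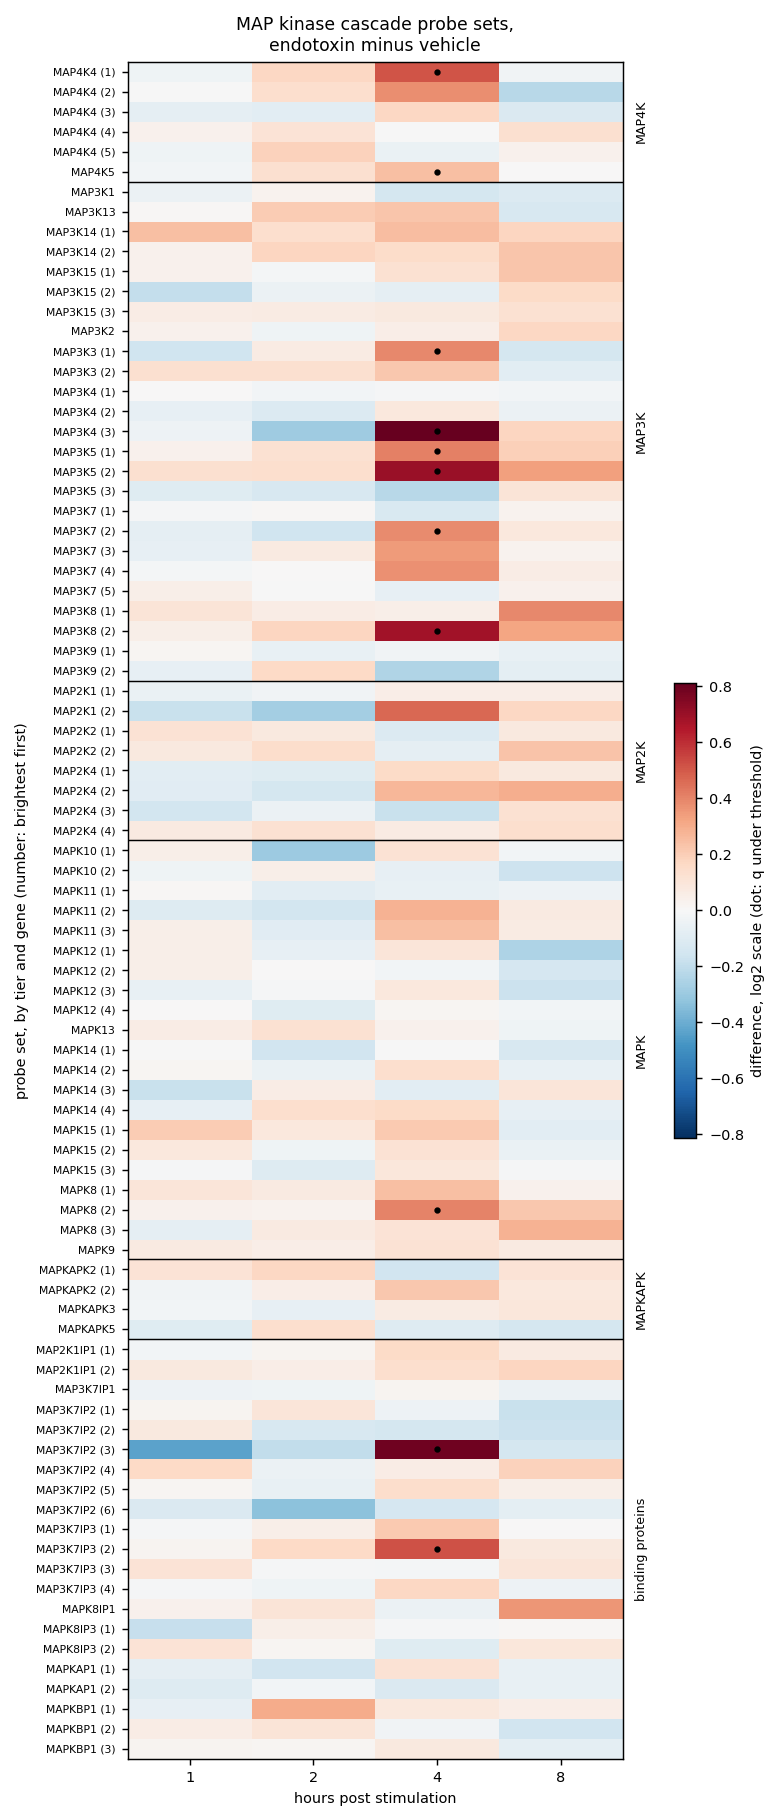
Difference between endotoxin-stimulated and vehicle-treated cells on the log2 scale (colour) for each of the 85 probe sets (rows, by tier and gene, brightest first) at 1, 2, 4 and 8 hps (columns). Black dots mark a q under 0.05, and all 11 of them lie in the 4 hps column on the side of higher signal with endotoxin.

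The MAP4K tier stands at the top of the relay, where its kinases act on MAP3Ks, and both of its genes had a called probe set at 4 hps. MAP4K4 (1), GgaAffx.25074.1.S1_s_at, had values of 8.48, 8.07 and 7.95 in endotoxin-stimulated cells, against 7.88 and 7.65 in vehicle-treated cells. The groups did not overlap, although the lowest endotoxin array and the higher vehicle array were close, and the difference was 0.51 ± 0.15 (SE; q = 0.0357, limma). MAP4K5 is measured by 1 probe set, at 6.58, 6.51 and 6.67 with endotoxin and at 6.42 and 6.26 with vehicle, a difference of 0.24 ± 0.07 (q = 0.0417, limma) with no overlap. Vehicle-treated cells at 1, 2 and 8 hps had MAP4K5 values of 6.42 to 6.66, a range that takes in all but the highest endotoxin array at 4 hps. The other 4 probe sets under the name MAP4K4 differed by -0.05 to 0.38 and were not called. In the current RefSeq table the transcript of 3 of them belongs to NRK, a related kinase for which MAP4K4 is listed as a synonym, so they may not report the same gene as MAP4K4 (1).

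MAP3Ks integrate the upstream signals, and this tier held 6 of the 11 calls at 4 hps, in 5 of its 11 genes, with a median difference of 0.12 over its 25 probe sets. MAP3K8 encodes TPL2, the kinase that couples Toll-like receptors to ERK in mammalian macrophages. MAP3K8 (2), GgaAffx.4586.1.S1_at, gave 6.44, 6.22 and 5.94 in endotoxin-stimulated cells at 4 hps, against 5.70 and 5.59 in vehicle-treated cells. All endotoxin arrays lay above both vehicle arrays, and the difference of 0.68 ± 0.11 had the lowest q of the 85 probe sets (q = 0.00503, limma). The brighter probe set, MAP3K8 (1), gave 8.21, 8.39 and 8.26 against 8.42 and 8.15, values that overlapped, with a difference of 0.05 ± 0.12 (q = 0.508, limma).

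At 8 hps both MAP3K8 probe sets ran the same way. MAP3K8 (1) was at 8.62, 8.71 and 8.45 with endotoxin and at 8.18 and 8.31 with vehicle, without overlap, a difference of 0.39 ± 0.12. MAP3K8 (2) was at 6.84, 6.71 and 6.29 with endotoxin and at 6.28 and 6.55 with vehicle, values that overlapped, a difference of 0.32 ± 0.11. These were the lowest unadjusted p values of the 85 probe sets at 8 hps (0.0042 and 0.0101, limma), and neither passed after adjustment (q = 0.521 and 0.714, limma).

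MAP3K5 encodes ASK1, which responds to oxidative and other stress and feeds JNK and p38. Both of its brighter probe sets were called at 4 hps. MAP3K5 (1), GgaAffx.24305.1.S1_at, measured 7.60, 7.53 and 7.30 in endotoxin-stimulated cells and 7.31 and 7.00 in vehicle-treated cells. Its groups touched, since the lowest endotoxin array fell just below the higher vehicle array, and the fitted difference was 0.41 ± 0.09 (q = 0.0129, limma). MAP3K5 (2), GgaAffx.8822.1.S1_s_at, measured 6.28, 5.73 and 5.59 against 5.27 and 5.38, which did not overlap, a difference of 0.70 ± 0.14 (q = 0.0105, limma). The dim MAP3K5 (3) stood at -0.22 and was not called.

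For the other MAP3K genes the call came from 1 probe set while others of the gene were not called in the main fit. MAP3K3 (1), Gga.16532.1.S1_at, for the kinase MEKK3, had values of 7.92, 7.71 and 7.73 with endotoxin and 7.35 and 7.61 with vehicle, a difference of 0.39 ± 0.11 without overlap (q = 0.0295, limma). MAP3K4 (3), GgaAffx.21145.1.S1_s_at, for the stress kinase MEKK4, had 4.88, 4.94 and 4.30 against 3.80 and 4.38 (0.81 ± 0.15, q = 0.00857, limma). Here the endotoxin array of replication 3 lay below the vehicle array of replication 2, so the groups overlapped. MAP3K4 (1) and (2) differed by -0.01 and 0.09. MAP3K7 (2), GgaAffx.24722.1.S1_s_at, for TAK1, had 8.75, 8.38 and 8.30 with endotoxin against 8.13 and 8.22 with vehicle (0.38 ± 0.11, q = 0.0356, limma), with no overlap. Of its other 4 probe sets, MAP3K7 (1) and (5) stood at -0.12 and -0.06, and MAP3K7 (3) and (4) at 0.35 and 0.37. None of these was called in the main fit. MAP3K7 (4) was called with limma's trend and robust options (q = 0.0467) and among the brighter probe sets alone (q = 0.0385).

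MAP3K14 encodes NIK, the kinase of the alternative NF-kB pathway, and its bright probe set had a difference above 0 at all times. MAP3K14 (1), GgaAffx.20605.1.S1_s_at, measured 9.23, 9.21 and 9.17 with endotoxin against 9.02 and 8.89 with vehicle at 1 hps. At 4 hps it measured 9.37, 9.34 and 9.40 against 9.19 and 9.03. The groups did not overlap at either time, and endotoxin arrays also lay above vehicle arrays at 8 hps, at 9.38 to 9.44 against 9.22 and 9.24. At 2 hps they overlapped, with 9.21, 9.34 and 9.38 against 9.09 and 9.25. The differences were 0.25, 0.13, 0.25 and 0.17 at 1, 2, 4 and 8 hps, each with an SE of 0.08, and none was called (q = 0.0534 at 4 hps and 0.927 to 1.00 at the other times, limma). The difference at 4 hps was called under 2 other settings, with limma's trend and robust options (q = 0.0295) and among the brighter 19220 probe sets alone (q = 0.0225). Its mean over 1, 2 and 8 hps, 0.18 ± 0.05, had the lowest unadjusted p of the 85 in that comparison (0.0019) and was not called either (q = 0.331, limma). MAP3K1, MAP3K2, MAP3K9, MAP3K13 and MAP3K15 had no called probe set at any time. MAP3K13 was among the highest of the 85 at 2 hps, at 0.21, and MAP3K15 (2) among the lowest at 1 hps, at -0.19. MAP3K9 (2) had the lowest difference of all 85 probe sets at 4 hps, -0.24, and it was not called (q = 0.0987, limma).

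MAP2Ks, the middle tier, had no called probe set at any time. MAP2K1 encodes MEK1, which activates ERK. Its brightest probe set kept within 10.4 to 10.8 over all 20 arrays, with differences of -0.05, -0.03, 0.06 and 0.05 at 1, 2, 4 and 8 hps. MAP2K1 (2) differed by -0.18, -0.28, 0.47 and 0.17, and the value at 4 hps was not called (q = 0.149, limma). MAP2K2, for MEK2, ran from -0.11 to 0.12 on its brightest probe set. MAP2K4, for the kinase MKK4 that activates JNK, had differences of 0.15 and 0.27 on its brighter pair at 4 hps, which were not called. All 8 probe sets of the tier had a difference above 0 at 8 hps, between 0.05 and 0.30, with 0 called. Of the 85 probe sets, 49 were above 0 at that time. The 8 come from only 3 genes and are not independent, and the dimmer pair of MAP2K4 stayed between 2.49 and 3.03 in all 20 arrays. MAP2K3, MAP2K6 and MAP2K7 were not among the genes analysed here.

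The MAP kinases of the JNK type are encoded by MAPK8, MAPK9 and MAPK10. In the main fit MAPK8 held the only call of the 21 probe sets of this tier at 4 hps. MAPK8 (2), Gga.1147.1.S1_s_at, gave 6.73, 6.86 and 6.49 with endotoxin at 4 hps and 6.16 and 6.58 with vehicle, so that the endotoxin array of replication 3 lay below a vehicle array. The fitted difference was 0.41 ± 0.10 (q = 0.0231, limma). MAPK8 (1) gave 7.47, 7.36 and 7.22 against 7.24 and 7.10, a difference of 0.25 ± 0.09 that was not called (q = 0.0787, limma). Among the brighter probe sets alone MAPK8 (1) was called at 4 hps (q = 0.0392, limma). MAPK9, with 1 probe set, ran between 9.11 and 9.33 over all arrays, with differences of 0.07, 0.06, 0.12 and 0.08 at 1, 2, 4 and 8 hps. MAPK10, the JNK gene best known from neurons in mammals, was dim, with a mean of 4.03 on its brighter probe set. That probe set had one of the lowest differences at 2 hps, at 3.98, 4.14 and 3.86 with endotoxin against 4.21 and 4.35 with vehicle (-0.29 ± 0.10, q = 0.961, limma).

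The p38 kinases are encoded by MAPK11, MAPK12, MAPK13 and MAPK14, and none of their 12 probe sets was called against vehicle at any time. MAPK14, for p38 alpha, was bright and very even between replicates. MAPK14 (1), Gga.5529.1.S1_at, gave 11.84, 11.86 and 11.84 in endotoxin-stimulated cells at 2 hps, against 12.03 and 11.99 in vehicle-treated cells. At 8 hps it gave 12.17, 12.09 and 12.14 against 12.29 and 12.25. All endotoxin arrays lay below both vehicle arrays at these times, by fitted differences of -0.16 ± 0.06 and -0.13 ± 0.06, neither of them called (q = 1.00 and 0.927, limma). At 1 and 4 hps the differences were -0.00010 and -0.0024. MAPK11 (1) ran between 10.8 and 11.0 over all arrays. MAPK12 (1) had a difference of -0.25 at 8 hps, the lowest of the 85 at that time, and was not called. MAPK13 was dim, at a mean of 4.74, with differences between -0.03 and 0.12. MAPK15, an atypical MAP kinase, had differences of -0.11 to 0.22 over its 3 probe sets.

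MAPK-activated kinases act below p38 and ERK, and none of their 4 probe sets was called against vehicle. MAPKAPK2, the p38 target that in mammals stabilises cytokine mRNAs, had differences of 0.11, 0.17, -0.16 and 0.11 on probe set 1 at 1, 2, 4 and 8 hps. MAPKAPK2 (2) stood at 0.22 at 4 hps, so that the probe sets had opposite signs there. MAPKAPK3 ran between -0.07 and 0.09, and MAPKAPK5 between -0.14 and 0.14.

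Adaptors and binding proteins held the remaining 2 calls at 4 hps, both in genes for partners of TAK1. MAP3K7IP2 and MAP3K7IP3, now named TAB2 and TAB3, encode proteins that bind ubiquitin chains and bring TAK1 to the receptor complex. MAP3K7IP2 (3), GgaAffx.23874.1.S1_s_at, measured 5.73, 5.60 and 5.52 with endotoxin against 4.57 and 5.37 with vehicle, without overlap (0.79 ± 0.17, q = 0.0157, limma). The same probe set had the lowest difference of the 85 at 1 hps, with 5.29, 5.43 and 4.54 against 5.70 and 5.62 (-0.43 ± 0.17, q = 1.00, limma). Its other 5 probe sets differed by -0.14 to 0.15 at 4 hps. The dimmest of them, MAP3K7IP2 (6), had the lowest difference of the 85 at 2 hps, -0.33, and was not called. It gave 2.90, 2.99 and 2.89 with endotoxin at that time, against 3.26 and 3.23 with vehicle, without overlap. MAP3K7IP3 (2), Gga.12239.2.S1_s_at, measured 7.61, 7.58 and 7.49 against 6.92 and 7.32 (0.52 ± 0.12, q = 0.0176, limma), also without overlap, and its other 3 probe sets lay between -0.02 and 0.21.

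None of the remaining adaptor genes had a called probe set against vehicle. MAP3K7IP1, now TAB1, differed by -0.04, -0.03, 0.02 and -0.04 at the 4 times. MAP2K1IP1, now LAMTOR3, a scaffold for MEK1 on late endosomes, had 0.16 and 0.14 at 4 hps on its pair of probe sets. MAPK8IP1, the JNK scaffold JIP1, was dim and uneven at 8 hps, with 4.32, 3.56 and 3.76 against 3.63 and 3.38 (0.36, not called). MAPKBP1 (1), for a JNK-binding protein, had the highest difference of the 85 at 2 hps, with 4.81, 4.99 and 4.64 in endotoxin-stimulated cells against 4.61 and 4.45 in vehicle-treated cells (0.30 ± 0.13, q = 1.00, limma). MAPKAP1, which shares the name but encodes SIN1 of the mTORC2 complex, lay between -0.16 and 0.11.

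Beyond the named values, probe sets under 1 gene name often gave different results. Of the 10 genes with a call at 4 hps, 4 were called on their brightest probe set (MAP4K4, MAP4K5, MAP3K3 and MAP3K5) and 6 only on a dimmer one. Under these 10 gene names are 23 further probe sets, none called in the main fit, of which 10 had a difference below 0. They include the MAP4K4 probe sets that the current RefSeq table places in NRK. They also include dim ones, such as MAP3K5 (3) at a mean of 3.53 and MAP4K4 (5) at 3.75. With each of the 35 genes taken by its brightest probe set, 19, 22, 23 and 19 of them had a difference above 0 at 1, 2, 4 and 8 hps. The share above 0 over the whole array was not counted. The median difference of all probe sets lay between -0.02 and -0.002 at these times. Probe sets whose name ends in _s_at, which match several transcripts, were 32 of the 85 and 7 of the 11 calls, and those ending in _at alone were 49 and 4. The share of each kind called over the whole array was not counted, so these counts do not tie the calls to the kind of probe set.

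**Figure D2:**
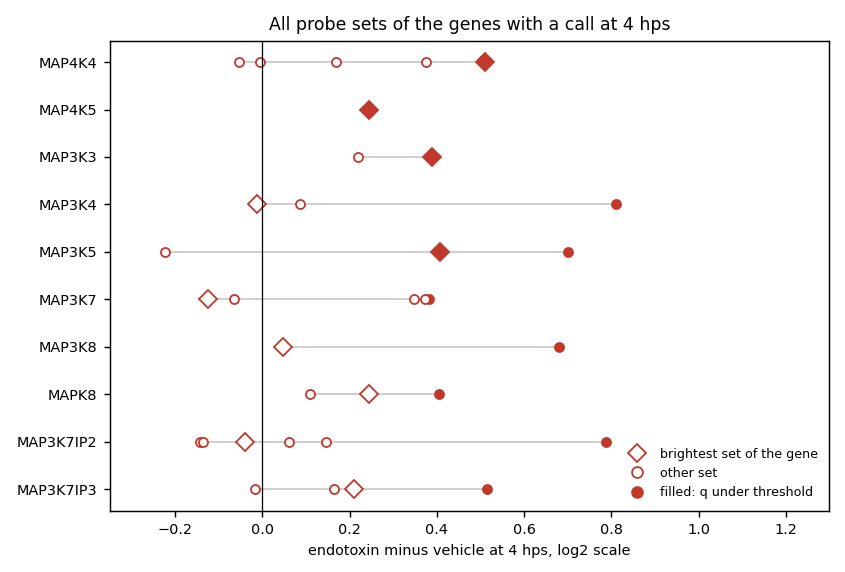
Endotoxin minus vehicle at 4 hps on the log2 scale for every probe set of the 10 genes with a call, with diamonds for the brightest probe set of a gene, circles for the others and filled symbols for a q under 0.05. For MAP3K4, MAP3K7, MAP3K8 and MAP3K7IP2 the brightest probe set lies between -0.12 and 0.05 while a dimmer one lies between 0.38 and 0.81.

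The differences at 4 hps take the 2 vehicle-treated arrays of that time as reference. The same endotoxin-stimulated arrays were therefore also compared with vehicle-treated cells of 1, 2 and 8 hps. Of the 85 probe sets 0 passed (1.3% of all did; limma). At an unadjusted p under 0.05, 8 passed, or 9.41% beside 12.6% of all probe sets. The differences of the 11 called probe sets against that reference ran from -0.04 to 0.22 with a median of 0.10, where against the vehicle of 4 hps they ran from 0.24 to 0.81 with a median of 0.51. MAP3K4 (3) and MAP3K7IP2 (3) had the highest differences against the vehicle of 4 hps and stood at -0.04 ± 0.12 and 0.10 ± 0.14 against the other vehicle arrays. MAP3K8 (2), MAP3K5 (2) and MAP3K5 (1) were highest of the 11 against the other vehicle arrays, at 0.22 ± 0.09, 0.20 ± 0.11 and 0.19 ± 0.07 (q = 0.234, 0.373 and 0.187, limma). MAP3K14 (1) had 0.24 ± 0.06 by this reference, close to its 0.25 against the vehicle of 4 hps, and the lowest q of the 85 (q = 0.0661, limma). MAP3K8 (1) had 0.26 ± 0.09 (q = 0.177, limma). Both comparisons share the endotoxin-stimulated arrays at 4 hps. The comparison with vehicle of 1, 2 and 8 hps differs in time as well as in treatment, and these cannot be told apart in it.

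**Figure D3:**
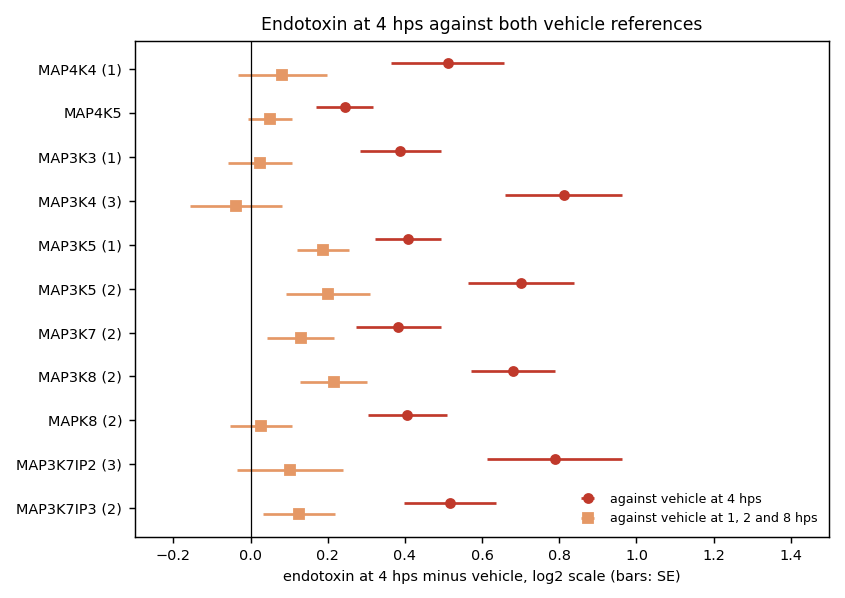
Endotoxin-stimulated cells at 4 hps minus vehicle-treated cells on the log2 scale for the 11 called probe sets, against the vehicle of 4 hps (circles) and against the vehicle of 1, 2 and 8 hps (squares), with bars for the SE from limma. The circles lie between 0.24 and 0.81 and the squares between -0.04 and 0.22.

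Vehicle-treated cells at 4 hps were themselves compared with vehicle-treated cells at the other times. Of the 85 probe sets, 8 were lower (3.74% of all were) and 0 higher (1.72% of all were; limma). Low vehicle arrays at 4 hps lower this difference and raise that between endotoxin and vehicle at 4 hps, since both comparisons use them. Among the 8 was MAP4K4 (3), GgaAffx.22748.1.S1_at, at -0.40 ± 0.10 (q = 0.0339, limma), 1 of those that RefSeq places in NRK. MAP3K4 (3) had the lowest difference, -0.85 ± 0.13 (q = 0.00830, limma), with 3.80 and 4.38 at 4 hps against 4.75 to 5.12 in the other 6 vehicle-treated arrays. MAP3K7IP2 (3) followed at -0.69 ± 0.15 (q = 0.0210, limma), with 4.57 and 5.37 against 5.42 to 5.88. Both vehicle arrays at 4 hps lay below all other vehicle arrays for 13 of the 85 probe sets, or 15.3% beside 7.72% of all, and for 7 of the 11 called with endotoxin, or 63.6% beside 54.6% of all probe sets called higher at 4 hps.

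For 9 of the 11 called probe sets the difference at 4 hps was larger in replication 1 than in replication 2, which is 81.8% beside 81.9% of all probe sets called higher. The endotoxin array exceeded the vehicle array of its own replication in both, which the call nearly fixes (99.8% of all called higher). The gaps were 0.17 to 1.16 with a median of 0.62 in replication 1 and 0.10 to 0.63 with a median of 0.28 in replication 2. MAP3K7IP2 (3) had the widest gap between them, at 1.16 and 0.22. Without the vehicle-treated array of replication 1 at 4 hps, 0 of the 85 probe sets were called higher, where 0.166% of all were, and without that of replication 2, 10 were, beside 4.43% of all. Without the endotoxin-stimulated array of replication 1, 2 or 3 at that time, 4, 12 and 7 were called higher, beside 1.42%, 5.66% and 2.17% of all. With no term for replication, 0 were called, and 0.0937% of all were higher.

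Most of the 11 called probe sets were also low in some endotoxin-stimulated arrays. The endotoxin array of replication 3 lay below the mean of replications 1 and 2 for 10 of the 11 called probe sets at 1 hps and for 11 at 2 hps, where 92.3% and 85.9% of all probe sets called higher did. Over the 85 it did so for 58.8% at 1 hps and 61.2% at 2 hps, beside 46.3% and 44% of the whole array. The calls partly build this in, since replication 3 has only endotoxin arrays. Low values there at 1 and 2 hps lower its term in the fit and raise the fitted difference at 4 hps. For MAP3K4 (3) the plain means at 4 hps were 4.70 with endotoxin and 4.09 with vehicle, and the fitted difference was 0.81. MAP3K4 (3) had 4.77, 4.96 and 4.04 in endotoxin-stimulated cells at 1 hps, against 4.75 and 4.90 in vehicle-treated cells. At 2 hps it had 4.77, 4.59 and 4.13, against 5.12 and 4.85, so that replication 3 was lowest at both times. These are the arrays that stood apart on the first principal component. The actin control probe set near the 3' end exceeded that near the 5' end by 0.01, -0.11 and -0.15 in the endotoxin-stimulated arrays at 4 hps, against 0.35 and 0.22 in vehicle-treated cells of the same time. In the endotoxin arrays of replication 3 at 1 and 2 hps that gap, which widens where RNA is broken or cDNA is short, was 0.19 and 0.11. It was also 0.11 in the vehicle-treated array of replication 1 at 1 hps, which did not stand apart with them. The same gap of GAPDH was -0.11, -0.01 and 0.04 in endotoxin-stimulated cells at 4 hps and overlapped with 0.07 and -0.03 in vehicle-treated cells. With the actin gap as a covariate in the fit, 0 of the 85 probe sets were called at 4 hps, where 0.0104% of all were higher. Without the replication 3 arrays at 1 and 2 hps 7 were, beside 2.74% of all. At 4 hps the actin gap was higher in both vehicle-treated arrays than in any endotoxin-stimulated array. The fit with the covariate can therefore barely separate the gap from treatment at that time. The part of RNA quality in the differences was not tested beyond these values.

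**Figure D4:**
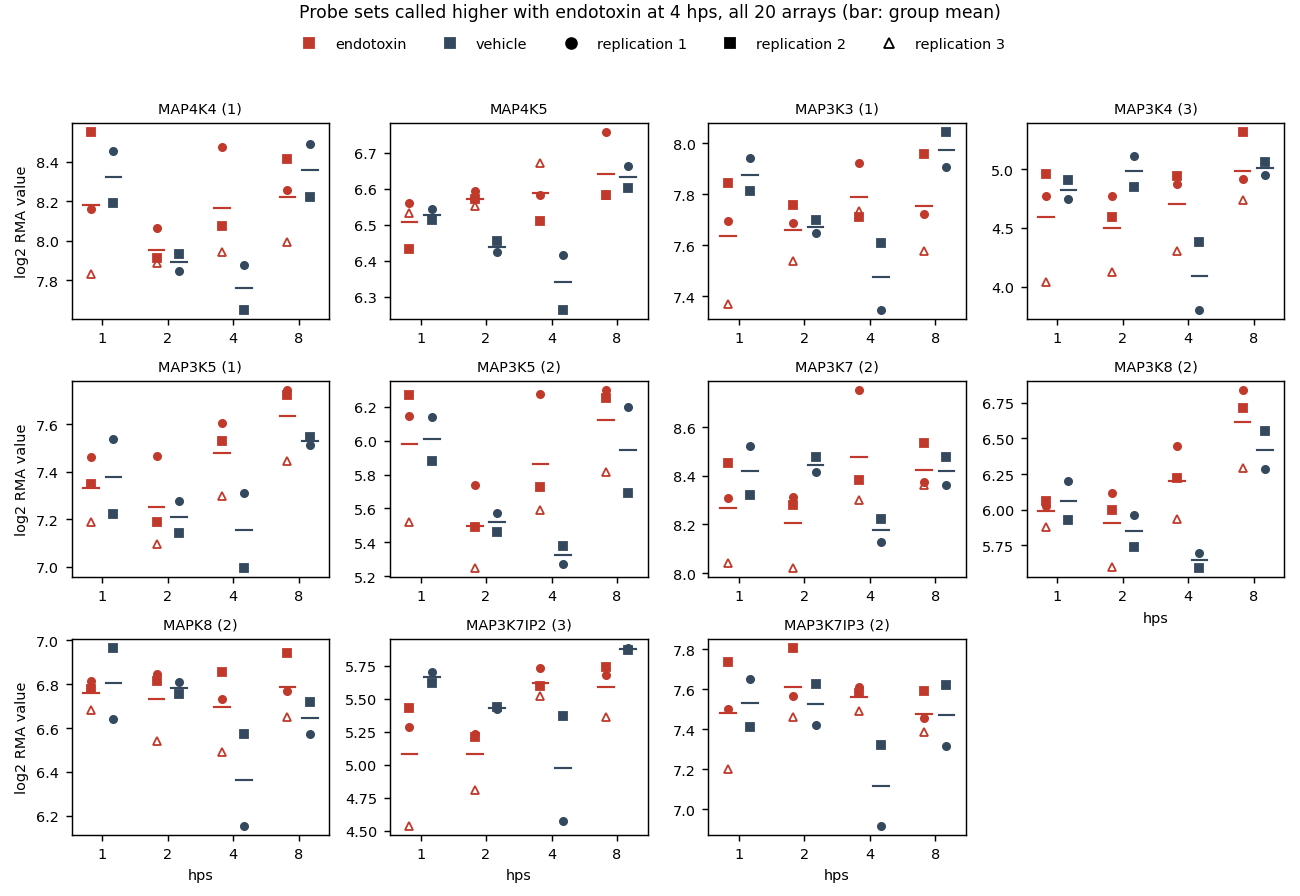
RMA values on the log2 scale in all 20 arrays (points) and group means (bars) at 1, 2, 4 and 8 hps for the 11 probe sets called at 4 hps, endotoxin in red left of vehicle in blue, with the replications by symbol. For most of the 11 the vehicle points at 4 hps sit low, and so do the open triangles of replication 3 at 1 and 2 hps, as for MAP3K4 (3) at 4.04 and 4.13.

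Changes over time within endotoxin-stimulated cells were called for 10 of the 85 probe sets, in 8 genes (11.8%, beside 10.9% of all; limma's F test). The lowest q values belonged to both MAP3K8 probe sets, which were highest at 8 hps. MAP3K8 (2) averaged 5.99 ± 0.10, 5.91 ± 0.27, 6.20 ± 0.25 and 6.61 ± 0.29 at 1, 2, 4 and 8 hps (SD, n = 3; q = 0.000634, limma). MAP3K8 (1) averaged 8.04 ± 0.16, 8.01 ± 0.21, 8.29 ± 0.10 and 8.59 ± 0.13 (SD, n = 3; q = 0.00297, limma). In vehicle-treated cells MAP3K8 (2) also changed over time (q = 0.00510, limma), with 6.20 and 5.93 at 1 hps, 5.97 and 5.74 at 2 hps, 5.70 and 5.59 at 4 hps, and 6.28 and 6.55 at 8 hps. MAP3K8 (1) was not called there (q = 0.107, limma).

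MAP3K5 (1) and (2) were lowest at 2 hps and highest at 8 hps in endotoxin-stimulated cells, spanning 0.39 and 0.63 between these means (q = 0.00869 and 0.00966, limma). MAPK14 (1) averaged 11.99 ± 0.04, 11.84 ± 0.01, 12.15 ± 0.02 and 12.13 ± 0.04 at 1, 2, 4 and 8 hps (SD, n = 3; q = 0.00326, limma), a small range with no overlap between 2 hps and any other time. MAP2K1IP1 (2) was highest at 2 hps, at 7.78 ± 0.07, and lowest at 8 hps, at 7.41 ± 0.08 (SD, n = 3; q = 0.00665, limma). It changed in vehicle-treated cells as well, with 7.58 and 7.70 at 1 hps and 7.20 and 7.24 at 8 hps (q = 0.00815, limma). MAPKAPK2 (1) and MAPKAPK5 were highest at 2 hps and lowest at 4 hps, spanning 0.27 and 0.30, and MAP3K7IP1 was lowest at 1 hps and spanned 0.30. The last was MAP3K7IP2 (3), which averaged 5.09 ± 0.48 at 1 hps and 5.62 ± 0.11 at 4 hps, and of which the low replication 3 arrays form part. Without the replication 3 arrays at 1 and 2 hps, 3 of the 85 were called over time in endotoxin, beside 3.22% of all.

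**Figure D5:**
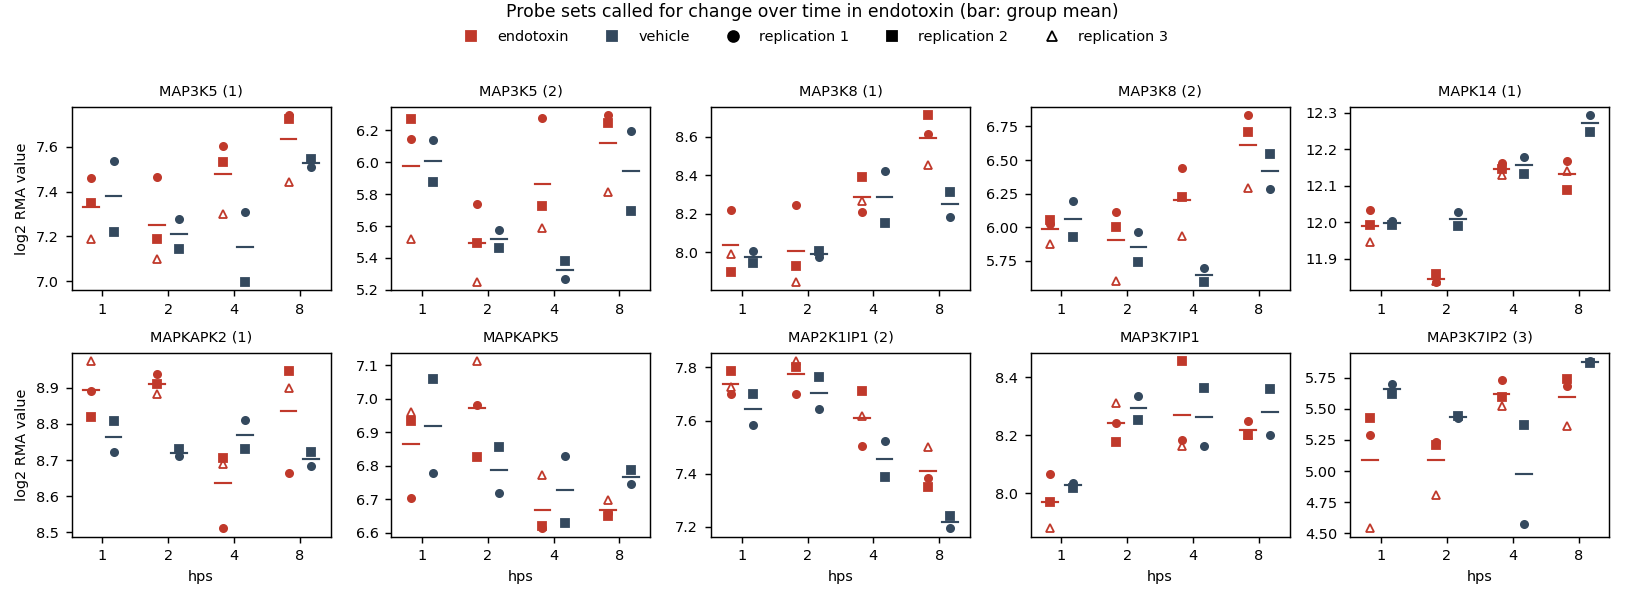
RMA values on the log2 scale in all 20 arrays (points) and group means (bars) at 1, 2, 4 and 8 hps for the 10 probe sets called for change over time in endotoxin-stimulated cells, endotoxin in red left of vehicle in blue. Both MAP3K8 probe sets are highest with endotoxin at 8 hps, and MAP2K1IP1 (2) is lowest at 8 hps in both treatments.

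In vehicle-treated cells 13 of the 85 probe sets, in 10 genes, changed over time (15.3%, beside 7.55% of all; limma's F test). For 10 of these 13 the lowest mean was at 4 hps. Of the cascade probe sets called over time, 6 were called in both treatments, 4 in endotoxin alone and 7 in vehicle alone. Neither share was counted over all probe sets called over time, so these counts do not set the cascade apart from the whole array. Whether the time course differed between treatments was tested by the dose-by-time interaction, which was called for 0 of the 85 (0% of all; limma), with 10 of them at an unadjusted p under 0.05, or 11.8% beside 11.5% of all probe sets. The lowest q values were 0.175 for MAP3K4 (3) and MAP3K7IP2 (3) (limma). Leaving out the vehicle-treated array of replication 2 at 4 hps gave 4 interaction calls, for MAP3K4 (3), MAP3K7IP2 (3), MAP2K1 (2) and MAPK11 (2), with q between 0.0102 and 0.0454, beside 1.43% of all (limma).

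Genes on either side of the cascade were counted by their brightest probe set. At 4 hps 4.95% of all probe sets were called higher and 3.13% lower, and 8.76% of the brighter 19220 were called higher. At 2 hps 0.0859% of all were called in either direction, and against the vehicle of 1, 2 and 8 hps 1.3%. The share over genes taken by their brightest probe set was not counted. Of 27 measured genes of upstream receptors, adaptors and GTPases, 0 were called at 1, 2 and 8 hps and 1 was higher at 4 hps, namely IRAK2, a kinase of the Toll-like receptor complex (0.60 ± 0.09, q = 0.00465, limma). IRAK2 was also called against the vehicle of 1, 2 and 8 hps (0.39 ± 0.07, q = 0.0142, limma). Of 21 measured phosphatases and other inhibitors, DUSP10 was called at 2 hps, and DUSP10, DUSP4 and RASA1 at 4 hps. DUSP10, a phosphatase that inactivates JNK and p38, was higher by 0.43 ± 0.07 at 2 hps (q = 0.0301, limma) and by 0.40 ± 0.07 at 4 hps (q = 0.00765, limma), and by 0.31 ± 0.06 against the other vehicle arrays (q = 0.0127, limma). DUSP4 was higher by 0.28 and RASA1, which switches off Ras, was lower by a difference of -0.41 at 4 hps, and neither was called against the other vehicle arrays.

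Among 14 measured nuclear targets, 1 was higher at 1 hps and 4 at 4 hps, with none lower. Of all probe sets 0.0364% were called at 1 hps in either direction, and 4.95% were called higher at 4 hps. JUN, the AP-1 component that JNK phosphorylates, was higher by 0.75 ± 0.11 at 1 hps (q = 0.0300, limma) and by 0.49 ± 0.11 at 4 hps (q = 0.0185, limma). ETS2, CREB1 and JUN, all called at 4 hps, stood at 0.35, 0.33 and 0.26 against the other vehicle arrays, and ATF3, at 0.58 against the vehicle of 4 hps, stood at -0.13 there. None of these 4 was called by that reference. Of 7 downstream kinases RPS6KA5, for the chromatin kinase MSK1, was higher at 4 hps (0.63) and stood at 0.07 against the other vehicle arrays, and 0 of 4 measured scaffolds were called. The median differences of these lists at 4 hps lay between 0.02 and 0.16.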

How the data were processed

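The deposited values are log2 expression measures made by the authors with RMA for 20 arrays, that is corrected for background, quantile normalized and summarised by median polish. They also deposited a table of log2 ratios and q values of their own comparisons, of which only the array annotation's gene names were used. By accession, 46 of the 85 probe sets matched the current RefSeq table (GRCg7b), 16 of them under another symbol. Another gene that the name rule takes, with 2 probe sets, is not reported here. The 96 control probe sets were left out of the tests.

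With limma 3.58.1 under R 4.3.3, a model of the 8 groups of dose and time plus a fixed replication effect was fitted to 38439 probe sets (10 residual and 5.13 prior degrees of freedom). The study's methods use this model and place replications on different days, which pairs same-numbered arrays. Across treatments, the replication 1 minus 2 differences correlated at -0.141, 0.236, 0.0684 and 0.113 at 1, 2, 4 and 8 hps. P values became q values by a histogram method with 20 bins.

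Named were all called members, a fixed set of core kinases, and listed genes called at any time by their brightest probe set. Members among the 3 highest and 3 lowest differences at each time were also to be named, and not every one is given. Other members named, and those called over time, were chosen after their values were seen. Members and lists were chosen with earlier results of these data known. The steps were tested on simulated data. Alternatives were no replication term, Benjamini-Hochberg adjustment, trend and robust options, cyclic loess, the brighter probe sets only, an actin covariate, another vehicle reference, and left-out replications and arrays. Probe sequences, scans and probe intensities were not used here.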

Additional observations from a re-analysis of the deposited data

How the results depend on the processing

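At 1, 2 and 8 hps and for their mean, 0 probe sets were called under all 72 alternatives, which include each left-out array of the time. Of all 38439 probe sets only 14, 33 and 61 were called at these times in the main fit, and 104 for the mean. Without the replicate block 6, 10 and 15 of all were higher and 0, 1 and 0 lower at these times. At such low shares a set as small as the cascade can have 0 calls by its size alone. These counts therefore do not show that its transcripts did not respond. At 4 hps the 11 calls became 0 without the replicate block (0.0937% of all probe sets were higher) and 6 with cyclic loess (3.16%). They became 13 with trend and robust options (5.64%), 14 of 49 in the brighter range (14.2%) and 0 with the actin covariate (0.0104%). Without the endotoxin arrays of replication 3 at 1 and 2 hps 7 were called (2.74%). Against the vehicle of 1, 2 and 8 hps 0 were called, where 1.3% of all were in either direction. By that reference MAP3K4 (3) reversed to -0.0378. A fit without the vehicle arrays at 4 hps also gave 0 by that reference, where 264 of all probe sets were higher and 255 lower. Leaving out a replication or an array gave 0 to 12 calls, with 0 without replication 1, 3 without replication 3, 0 without the vehicle array and 4 without the endotoxin array of replication 1, and 7 without the endotoxin array of replication 3. The 10 calls over time in endotoxin became 4 without the block (4.82% of all), 18 of 49 in the brighter range (43.8%), 6 with the actin covariate (7.98%), 3 without the replication 3 arrays at 1 and 2 hps (3.22%), and 0 to 11 with a replication or array left out (3, 0 and 1 without replication 1, 2 and 3, and 6 without the replication 3 array at 8 hps). The 13 calls over time in vehicle became 1 without the block (1.45% of all), 5 with Benjamini-Hochberg (3.12%), 22 in the brighter range (31.9%), 7 with the actin covariate (4.04%) and 0 to 14 with a replication or array left out, where every vehicle array but replication 2 at 1 and 4 hps lowered the count to 2 to 7. The 8 lower probe sets in vehicle at 4 hps became 0 without the block (0.026% of all were lower), 5 with cyclic loess (2.4%), 16 in the brighter range (12.1%), 0 with the actin covariate (0.0052%) and 0 to 11 with a replication or array left out (5 without replication 2, 0 without the vehicle array of replication 1 at 4 hps, and 4 each without vehicle replication 1 at 1 hps, replication 2 at 8 hps and replication 2 at 2 hps). The interaction gave 0 to 4. For the other differences the cause was not tested. The brighter range tests fewer probe sets. Left-out single arrays for the time and interaction tests, the fit without the vehicle arrays at 4 hps, and the left-out replication 3 arrays for the change over time were added after seeing the data. With 2 vehicle-treated arrays per time, 1 array can set a group mean.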
